A study of Mus musculus with 3 samples.

Results

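The tetraspanins are a family of small membrane proteins. Their genes were followed in mouse yolk sac cells carrying both VE-cadherin, a junction protein of endothelial cells, and CD45, the common antigen of leukocytes, which were isolated by flow cytometry. Members were the non-control probes whose gene name is Tspan with a number, or Cd9, Cd37, Cd53, Cd63, Cd81, Cd82, Cd151, Upk1a, Upk1b, Prph2 or Rom1. This gave 43 probes of 31 genes among 55681 probes on the array. The Tie-2-Etv2 group held 2 samples (replicates 1 and 2) from yolk sacs in which a Tie-2 Cre transgene turned on an Etv2 transgene; Etv2 is an ETS family regulator needed early in vascular and blood development. The control group held 1 sample, from yolk sac of E10.5 embryos (E for embryonic day). The labels give no embryonic day for the Tie-2-Etv2 samples, do not say which transgenes the control carried, and give all 3 samples the same mixed background of B6/CBA and other strains. Tie-2 (Tek) drives Cre in endothelial cells and in much of the blood lineage that descends from them, so recombination is not limited to the sorted fraction. Nothing in the labels says whether the samples came from separate litters or pools, so p-values reflect how far these samples vary, a spread that may be technical.

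Tetraspanins pass through the membrane several times and expose a short and a long extracellular loop. They bind each other and partner proteins laterally, and so gather integrins, immunoglobulin superfamily proteins, proteases and signalling receptors into membrane microdomains. In blood and vessels they are known for roles in platelet function, leukocyte adhesion, antigen receptor signalling and the trafficking of the protease Adam10.

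RNA was labelled with Cy3 and hybridised to 1-colour Agilent arrays, 1 per sample, all on 1 slide. Levels are the log2 processed signal minus the array's 75th percentile over probes well above background on all 3 arrays, so 0 marks that percentile. The dimmest array was Tie-2-Etv2 replicate 1, with a 75th percentile of 1199 intensity units, against 2092 on replicate 2 and 2073 on the control array. Probes well above background numbered 24222 and 27018 on Tie-2-Etv2 replicates 1 and 2, against 25466 on the control array, and the number of arrays limits the precision of every value. The transgene's gene, Etv2, had levels of -0.41 and -1.62 on the Tie-2-Etv2 arrays, against -4.84 on the control array. A second Etv2 probe had levels of -1.50 and -2.18, against -4.16 on the control array. Of the genes for the sorting proteins, Ptprc (CD45) differed by -0.46 (log2, mean of the Tie-2-Etv2 arrays minus control) and Cdh5 (VE-cadherin) by 3.53, and both were above background on all 3 arrays. Differences were tested with limma over 26217 probes well above background on both Tie-2-Etv2 arrays or on the control array. Only the Tie-2-Etv2 arrays supply a spread for that test, which takes the single control array to vary as much as they do.

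Promoters of 29 of the 31 genes were found in RefSeq (build GRCm38.p6), all but Tspan18 and Upk1b, as 39 windows of the 250 bases before a transcript start. The windows were searched on both strands for CCGGAA, a sequence that ETS factors bind, here called the ETS core, and for a GATA site. Only exact matches were counted, so a window without one may hold other sequences that ETS factors bind. The ETS core was in the windows of 7 tetraspanin genes, which is 17.9% of their windows, against 12.0% of all 32851 windows. The GATA site searched for, AGATAA, was in 5.13% of their windows, against 9.99% of all windows. Of the 6 genes with the ETS core that were tested, 4 (Cd37, Tspan2, Tspan6 and Tspan32) had higher means in Tie-2-Etv2 cells and 2 (Cd9 and Rom1) had lower ones, and a match is no evidence of binding. Means were also higher for 15 of all 25 tested tetraspanin genes and for 11039 of all 19583 tested genes. The windows below are examples, those of Cd37, Tspan2 and Tspan32, which hold the ETS core, and of Tspan33, which holds neither motif. The level of Tspan33 was lower in Tie-2-Etv2 cells. Not printed are a second Tspan2 window, which holds neither motif, and the windows of Cd9, Rom1, Tspan6 and Tspan11, which hold the ETS core. Those of Tspan8 and Tspan15, whose means were higher in Tie-2-Etv2 cells, hold neither motif and are not printed either. They run 5′ to 3′ along the gene's strand and end at the base before the transcript start, with matches to either motif, on either strand, in capitals.
Cd37, chr7:45238840-45239089, minus strand: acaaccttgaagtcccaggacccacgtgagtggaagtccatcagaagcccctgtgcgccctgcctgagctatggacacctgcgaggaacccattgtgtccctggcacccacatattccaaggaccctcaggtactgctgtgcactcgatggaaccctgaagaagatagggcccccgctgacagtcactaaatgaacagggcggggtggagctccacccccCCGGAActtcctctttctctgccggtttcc
Tspan2, chr3:102734520-102734769, plus strand: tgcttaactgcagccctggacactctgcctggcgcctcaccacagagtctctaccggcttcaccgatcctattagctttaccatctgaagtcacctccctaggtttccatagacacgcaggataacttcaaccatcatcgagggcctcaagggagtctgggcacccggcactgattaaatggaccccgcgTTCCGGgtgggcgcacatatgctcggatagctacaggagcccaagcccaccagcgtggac
Tspan32, chr7:143004796-143005045, plus strand: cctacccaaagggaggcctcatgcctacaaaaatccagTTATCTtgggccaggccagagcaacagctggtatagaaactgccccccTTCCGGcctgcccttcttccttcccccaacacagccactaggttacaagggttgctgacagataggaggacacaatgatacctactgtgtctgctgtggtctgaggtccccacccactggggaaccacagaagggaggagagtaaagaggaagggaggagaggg
Tspan33, chr6:29693964-29694213, plus strand: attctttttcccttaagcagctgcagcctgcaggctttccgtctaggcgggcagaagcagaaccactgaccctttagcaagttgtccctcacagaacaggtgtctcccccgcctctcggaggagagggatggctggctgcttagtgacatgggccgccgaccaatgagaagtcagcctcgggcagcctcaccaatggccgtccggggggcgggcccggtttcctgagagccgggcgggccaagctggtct

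The family had a few members far from the control in each direction and a larger number close to it. Of the 31 genes, 25 had a tested probe. Tspan1, Tspan9, Tspan10, Tspan11, Prph2 and Upk1b were not well above background on any array and were not tested. Tspan9 is known from platelets, Tspan10 belongs to the group that binds Adam10, Prph2 builds photoreceptor disc rims and Upk1b lines the urothelium. Over the 25 tested genes the median log2 difference was 0.12, against 0.07 over all 19583 tested genes. With each Tie-2-Etv2 array taken alone the family medians were 0.51 on replicate 1 and 0.27 on replicate 2. Over all tested genes they were 0.08 and 0.05. Both arrays lay on the same side of the control for 21 of the 25 genes, 12 above it and 9 below it. Of all 19583 tested genes, 8325 lay above the control on both arrays and 6044 below it on both. The mean difference was larger than the gap between both Tie-2-Etv2 arrays for 17 of 25 genes, and the same held for 51.4% of all tested genes.

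**Figure D1:**
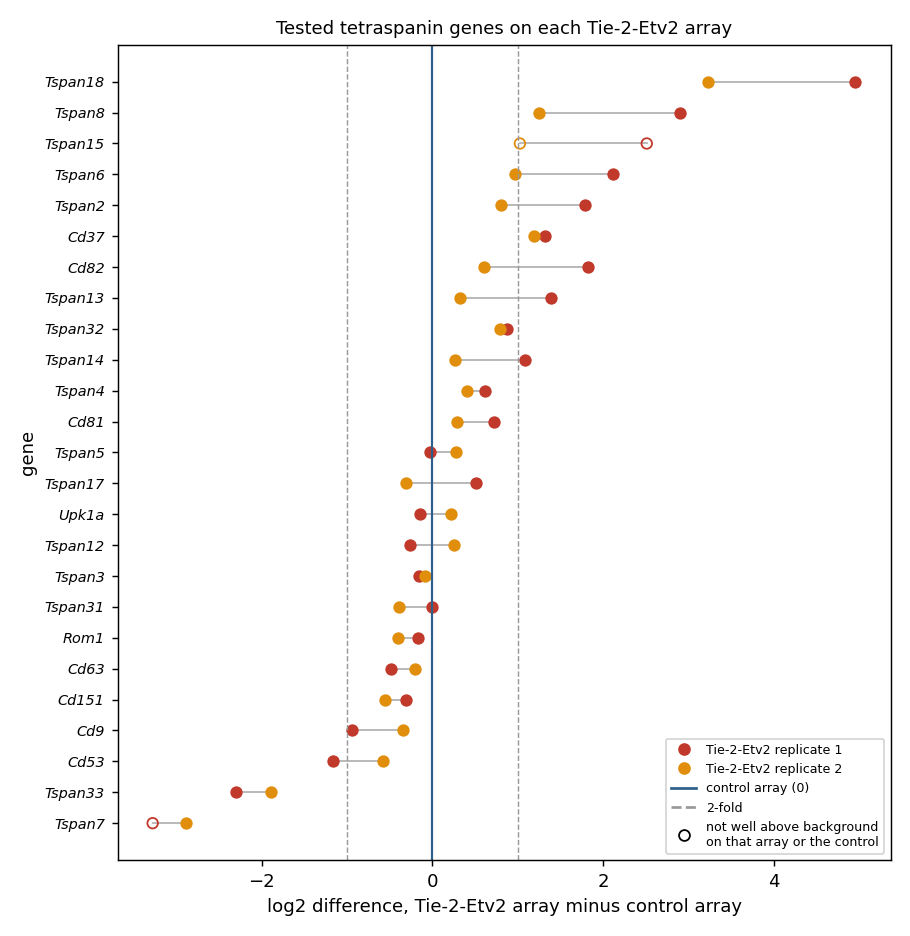
The log2 difference from the control array (x axis) of each tested tetraspanin gene (rows) on Tie-2-Etv2 replicate 1 and replicate 2, with dashed lines at 2-fold and open points where that array or the control was not well above background. Tspan18 stands at 4.95 and 3.22 at one end and Tspan7 at -3.27 and -2.88 at the other, with most genes within 1 unit of 0.

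On all 3 arrays, 23 tetraspanin genes were well above background. Tspan18, Tspan8 and Cd37 exceeded the control by 2-fold or more on each Tie-2-Etv2 array, as did 2.92% of all genes detected on all 3 arrays. Tspan33 lay 2-fold or more below the control on each, as did 3.44% of all such genes. Among all 25 tested genes, which also take in Tspan15 (not above background on the control array) and Tspan7 (not above background on Tie-2-Etv2 replicate 1), 4 were 2-fold higher and 2 were 2-fold lower. The corresponding shares of all tested genes were 3.92% and 6.64%. The 2-fold count carries no test, and a gene that enters only because one group is bright has to differ.

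In limma's test 0 of 35 tested tetraspanin probes passed an adjusted p of 0.05, as did 0% of all tested genes and 0% of all tested probes. The smallest adjusted p of a tetraspanin probe was 0.204, that of Tspan7, and the smallest over all probes was 0.199. At an unadjusted p under 0.05 there were 4 of 25 tetraspanin genes (Tspan18, Cd37, Tspan33 and Tspan7), and 10.8% of all tested genes. With normexp background correction 4 tetraspanin probes passed, of Tspan18 (both probes), Tspan8 and Tspan33, beside 3.14% of all genes. With no filter on dim probes 3 passed, both of Tspan18 and that of Tspan7, beside 1.22% of all genes. An exact permutation test of 2 arrays against 1 cannot give a p below 0.333.

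Tspan18, an endothelial tetraspanin known to bind the calcium channel Orai1, was the furthest above the control. Its level was 2.62 and 0.90 on Tie-2-Etv2 replicates 1 and 2, against -2.33 on the control array. Both Tie-2-Etv2 arrays lay well above the control, and they were 1.73 log2 units apart from each other. Tie-2-Etv2 cells were 17.0-fold higher in the mean, by factors of 31.0 and 9.35 on the 2 arrays (log2 difference 4.09 ± 0.82, SE; limma adjusted p = 0.271). By the smaller of its differences it ranked 9 among 17205 genes detected on all 3 arrays. This probe lies on chromosome 2, 93041981 to 93042040 (mm9, minus strand), and starts at base 3627 of its transcript. A second probe, at 93043413 to 93043472 and starting at base 2195, was well above background on both Tie-2-Etv2 arrays and not on the control array. By that probe Tspan18 was at least 16.2-fold higher in Tie-2-Etv2 cells, with bounds of 31.8-fold for replicate 1 and 8.25-fold for replicate 2 (adjusted p = 0.262 in limma). Bounds of this kind, here and below, set a dim value to the higher of its own level and the lowest level detected on that array. With normexp background correction this second Tspan18 probe gave a log2 difference of 2.20, which is under its bound. One more Tspan18 probe, at 93067711 to 93067770 and designed on another transcript, was not above background on any array. Orai1 itself had levels of -1.69 and -2.32 on the Tie-2-Etv2 arrays, against -2.77 on the control array, a log2 difference of 0.77 ± 0.42 (SE).

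**Figure D2:**
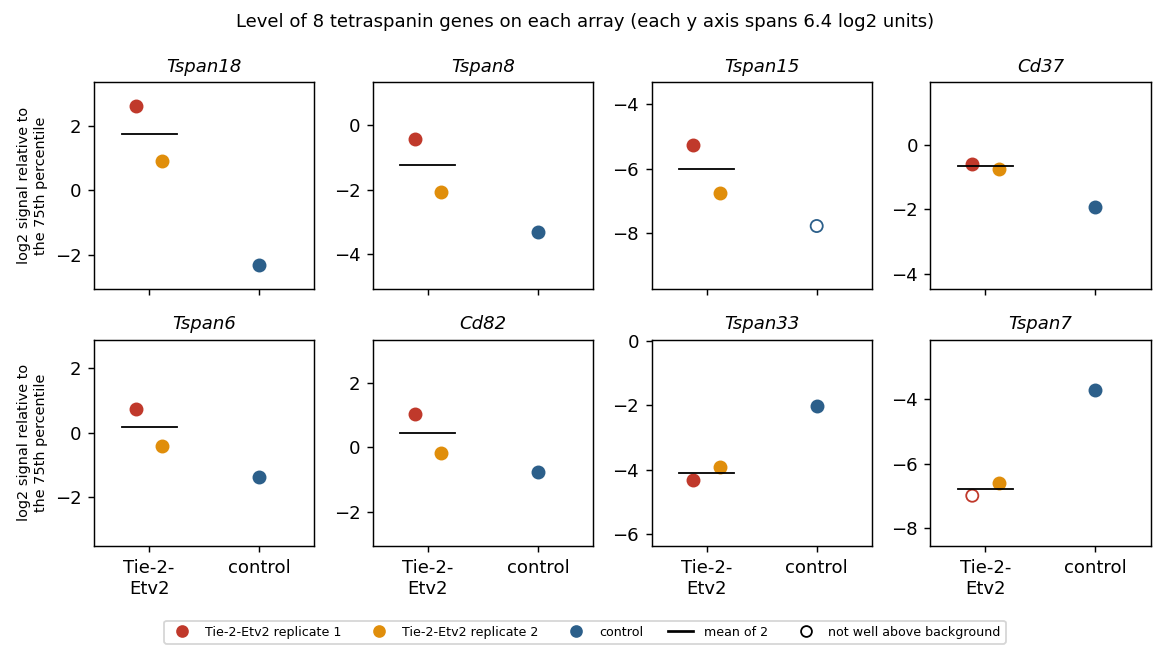
Level (log2 signal relative to the array's 75th percentile, y axis) of 8 tetraspanin genes on the 2 Tie-2-Etv2 arrays (left, bar at their mean) and the control array (right), with open points not well above background. For Tspan18 both Tie-2-Etv2 points, at 2.62 and 0.90, lie above the control point at -2.33, and for Tspan7 both lie below it.

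Tspan8, best known from epithelia and carcinomas, had levels of -0.43 and -2.07 on Tie-2-Etv2 replicates 1 and 2, against -3.32 on the control array. Its mean was 4.20-fold higher, with factors of 7.44 and 2.37 on replicates 1 and 2 (limma adjusted p = 0.501). Replicate 2 therefore lay closer to the control than to replicate 1. Cd37, a tetraspanin of B cells and other leukocytes, had levels of -0.61 and -0.74 on the Tie-2-Etv2 arrays, against -1.92 on the control array. Its Tie-2-Etv2 arrays were nearly level with each other, and the mean was 2.38-fold higher (log2 difference 1.25 ± 0.32, SE; limma adjusted p = 0.344). A second Cd37 probe gave log2 differences of 0.91 and 1.08. Of the 6 B cell markers examined, 4, 3 and 3 were above background on Tie-2-Etv2 replicate 1, replicate 2 and the control array. The summed level of the 6, in multiples of the 75th percentile, was 0.823 and 1.38 on the Tie-2-Etv2 arrays, against 2.51 on the control array. Cd79b, with levels of -0.43 and 0.41 on the Tie-2-Etv2 arrays against 1.30 on the control array, made up most of each sum. Cd79a and Vpreb1 differed by 0.52 and -0.10, and 0 of the 3 tested markers were 2-fold apart in both arrays. Ms4a1 and Pax5 were above background on no array.

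Tspan33 is a tetraspanin known in the mouse for a role in red cell formation and a binder of Adam10. Among the tetraspanin genes detected on all 3 arrays, Tspan33 was the furthest below the control. Its level was -4.32 and -3.90 on Tie-2-Etv2 replicates 1 and 2, against -2.02 on the control array. It was 4.26-fold lower in the mean, 4.92-fold and 3.70-fold on replicates 1 and 2 (log2 difference -2.09 ± 0.37, SE; limma adjusted p = 0.248). The Tie-2-Etv2 arrays lay 0.41 log2 units apart, well short of their distance from the control. Beside it, erythroid markers were lower in Tie-2-Etv2 cells. Of 7 tested erythroid markers, 6 lay 2-fold or more below the control on each array, and the summed level of all 10 was 8.29 and 11.9 on the Tie-2-Etv2 arrays, against 43.2 on the control array. Epb42 was above background on no array. The part of erythroid cells in the Tspan33 difference was not tested, and in sorted bulk cells fewer cells of a type and less RNA per cell cannot be told apart.

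Tspan7, a gene of the X chromosome known from neurons and T cell leukaemia, had levels of -6.60 on Tie-2-Etv2 replicate 2 and a dim -6.99 on replicate 1, against -3.71 on the control array. On replicate 2 it was 7.38-fold lower, and for replicate 1, whose spot was dim, the bound was at least 8.67-fold lower. Both arrays lay far below the control by its single probe, at 10173646 to 10173705 (mm9, plus strand), and the log2 difference was -3.08 ± 0.36 (SE; limma adjusted p = 0.204). With normexp background correction the difference shrank to -1.27.

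The members of the group with a long loop rich in cysteine, which escort Adam10 out of the endoplasmic reticulum, did not differ alike. Of the 6 genes of this group (Tspan5, Tspan10, Tspan14, Tspan15, Tspan17 and Tspan33), 5 were tested, 1 (Tspan15) was counted by its measured signals as 2-fold higher on each Tie-2-Etv2 array and 1 (Tspan33) as 2-fold lower. Tspan15 had levels of -5.27 and -6.75 on the Tie-2-Etv2 arrays and a dim -7.78 on the control array, so that its mean was at least 2.33-fold higher, with bounds of 3.90-fold and 1.39-fold for replicates 1 and 2. Its signals were 31.1 and 19.4 intensity units on the Tie-2-Etv2 arrays, close to the limit of detection. With normexp its log2 difference was 0.72. Tspan14 had levels of 2.53 and 1.72 on the Tie-2-Etv2 arrays, against 1.45 on the control array. Tspan5 had levels of -0.12 and 0.18 on the Tie-2-Etv2 arrays, against -0.09 on the control array, so the groups overlapped. Tspan17 overlapped as well, at -3.15 and -3.97 against -3.66 on the control array. Adam10 itself had levels of 2.0 and 1.41 on the Tie-2-Etv2 arrays, against 1.16 on the control array, a log2 difference of 0.55 ± 0.41 (SE; limma adjusted p = 0.799).

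Among the other leukocyte tetraspanins, Cd53, which is found on most leukocytes, had levels of -3.28 and -2.70 on the Tie-2-Etv2 arrays, against -2.12 on the control array. It was below the control on both Tie-2-Etv2 arrays, by 1.16 on replicate 1 and 0.58 on replicate 2 (log2 difference -0.87 ± 0.41, SE; limma adjusted p = 0.601). Cd82, studied as a suppressor of metastasis and in blood stem cells, had levels of 1.04 and -0.17 on the Tie-2-Etv2 arrays, against -0.78 on the control array. Its 3 probes gave mean log2 differences of 1.21, 0.99 and 1.45, and by the last of these it was 2-fold higher in both arrays. Tspan32, a blood-restricted tetraspanin, had levels of 0.61 and 0.53 on the Tie-2-Etv2 arrays, against -0.27 on the control array. Its 3 probes gave 0.83, 0.42 and 0.57. All 3 Cd82 probes and all 3 Tspan32 probes were thus above the control in the mean, while Cd53 was below it.

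Macrophage markers were lower in Tie-2-Etv2 cells beside Cd53. All 11 tested macrophage markers lay 2-fold or more below the control on each array, with a summed level of the 12 on the array of 4.96 and 16.7 on the Tie-2-Etv2 arrays, against 72.9 on the control array. Each of the 12 was above background on at least 1 array. Granulocyte and mast cell markers, which stood higher, summed to 54.5 and 54.6 over 11 genes on the Tie-2-Etv2 arrays, against 20.2 on the control array. Of 10 tested, 6 were 2-fold higher and 0 lower, and Mcpt4 was above background on no array. Mpo, with levels of 5.22 and 5.46 on the Tie-2-Etv2 arrays against 4.16 on the control array, made up most of each granulocyte and mast cell sum. The part of these cells in the differences of Cd37, Cd53, Cd82 and Tspan32 was not tested.

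The widely expressed tetraspanins stayed within 2-fold of the control on both Tie-2-Etv2 arrays. Cd9, which regulates cell fusion and adhesion and is abundant on platelets, had levels of -0.26 and 0.34 on the Tie-2-Etv2 arrays, against 0.67 on the control array. Cd63, of lysosomes, granules and exosomes, had levels of 2.32 and 2.61 on the Tie-2-Etv2 arrays, against 2.81 on the control array. Cd151, a partner of laminin-binding integrins, had levels of -0.04 and -0.28 on the Tie-2-Etv2 arrays, against 0.27 on the control array. These 3 were below the control on both arrays, by mean log2 differences of -0.64, -0.34 and -0.43. Cd81, a part of the B cell coreceptor, had levels of 3.11 and 2.69 on the Tie-2-Etv2 arrays, against 2.39 on the control array, and so was above it on both. The limma adjusted p was 0.747 for Cd9, 0.882 for Cd63, 0.812 for Cd151 and 0.794 for Cd81.

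Tspan6 and Tspan2 lay just short of the 2-fold count. Tspan6, also on the X chromosome, had levels of 0.74 and -0.41 on the Tie-2-Etv2 arrays, against -1.37 on the control array, with factors of 4.33 and 1.95 on replicates 1 and 2. Tspan2, known from oligodendrocytes, had levels of -1.50 and -2.48 on the Tie-2-Etv2 arrays, against -3.28 on the control array, and its second probe gave log2 differences of 2.41 and 0.99. Neither passed the test (limma adjusted p = 0.507 for Tspan6 and 0.539 for Tspan2). The remaining tested genes gave mean log2 differences of 0.85 for Tspan13, 0.51 for Tspan4 (known for migrasomes), 0.03 for Upk1a, -0.01 for Tspan12, -0.12 for Tspan3, -0.20 for Tspan31 and -0.28 for Rom1. Tspan12, which acts in Norrin signalling through Fzd4 in retinal vessels, had levels of -4.87 and -4.36 on the Tie-2-Etv2 arrays, on either side of -4.61 on the control array. Upk1a, of the urothelium, and Rom1, of photoreceptors, were above background on all 3 arrays, whereas the urothelial markers Upk2, Upk3a and Krt5 were above it on none. The epithelial keratin Krt20, also examined as a urothelial marker, was above background on Tie-2-Etv2 replicate 2 and on the control array, with levels of -5.32 and -4.26.

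Within the genes that lay on one side of the control, replicate 1 was usually the further array. This held for 12 of the 12 genes above the control and for 6 of the 9 below it. The same order held for 72.7% of all genes above the control on both arrays and for 65.3% of all genes below it. On replicate 1 taken alone 9 tetraspanin genes were 2-fold or more higher, beside 9.06% of all tested genes, and on replicate 2 alone 4 were, beside 4.58% of all tested genes. Of the tetraspanins, Tspan6, Tspan2, Cd82, Tspan13 and Tspan14 reached 2-fold higher on replicate 1 and not on replicate 2. Counted in the same way, 3 tetraspanin genes were lower on replicate 1, beside 11.3% of all tested genes, and 2 on replicate 2, beside 8.34%. Of the 30 tested partner genes described below, 14 were 2-fold apart on replicate 1, beside 20.3% of all tested genes, and 5 on replicate 2, beside 12.9%. The summed level of endothelial markers was also further from the control on replicate 1. Of 16 tested, 12 stood 2-fold or more above the control on both Tie-2-Etv2 arrays and 0 stood 2-fold below it on both. Cldn5 and Emcn stood above it on replicate 1 only, by log2 differences of 2.41 and 2.07, with -0.34 and -0.29 on replicate 2. The summed level of the 16 was 53.4 on replicate 1 and 26.4 on replicate 2, against 11.1 on the control array. Egfl7, with levels of 5.39 and 4.42 on replicates 1 and 2 against 3.06, made up most of each sum. All 16 were above background on both Tie-2-Etv2 arrays and 13 on the control array. The part of endothelial cells in the differences of Tspan18, Tspan8, Tspan6 and Tspan2 was not tested.

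More than 1 tested probe measured 8 of the tetraspanin genes, 18 probes in all. In each of the 8 genes the probes gave mean differences of the same sign, as the plot by probe shows. Tspan18 had a mean log2 difference of 4.09 by one probe and, with the control dim, of at least 4.02 by the other. With normexp the latter probe gave 2.20. Tspan2 had 1.70 and 1.30, in order along the transcript. Tspan5, with 0.35 and 0.12, and Tspan17, with 0.19 and 0.10, were near the control by both of their probes. Cd151 was below the control by both, at -0.36 and -0.43.

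**Figure D3:**
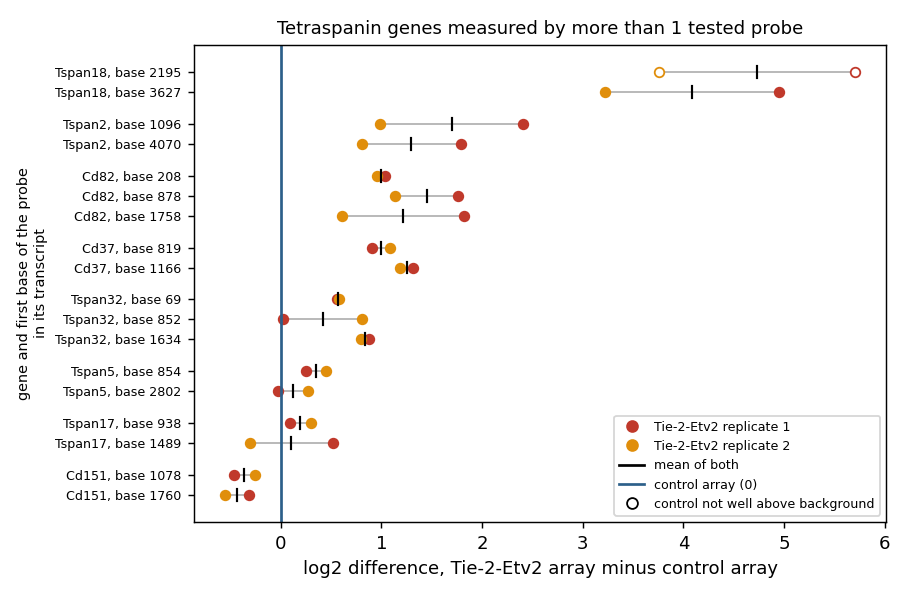
The log2 difference from the control array (x axis) by probe for the 8 tetraspanin genes with more than 1 tested probe, named with the probe's first base in the transcript, on Tie-2-Etv2 replicate 1 and replicate 2, with a bar at the mean and open points where the control was not well above background. Both Tspan18 probes lie above 3 on both arrays by measured signal, one of them with a dim control, and the probes of each gene have means on one side of 0.

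Proteins that tetraspanins bind or work with were examined as a list of 38 genes, of which 30 were tested. Their median log2 difference was -0.09, with 3 genes counted as 2-fold higher, 2 as lower and 25 as neither, beside 10.6% of all tested genes 2-fold apart in either direction. Itga2b, the platelet integrin subunit also found on early blood progenitors, had levels of -0.02 and 0.33 on the Tie-2-Etv2 arrays, against -2.14 on the control array, 4.90-fold higher (limma adjusted p = 0.235). Hbegf, a growth factor precursor that binds Cd9, had levels of -0.91 and -2.10 on the Tie-2-Etv2 arrays, against -3.23 on the control array. Cr2, a complement receptor in the complex with Cd81, was dim on the control array and 2.36-fold higher at least. Gp6, the platelet collagen receptor, and Epcam, an epithelial adhesion protein, were above background on the control array only, at least 1.91-fold and 1.31-fold lower in Tie-2-Etv2 cells. Of the partners detected on all 3 arrays, only Itga2b and Hbegf were 2-fold apart in both by the brightest tested probe. Itgb3 fell short by its brighter probe, with log2 differences of 0.57 and 0.99 on replicates 1 and 2. By another Itgb3 probe it was 2-fold higher on both, with 1.175 and 1.199. Itgb1, the shared beta subunit of many tetraspanin-bound integrins, gave -0.41 by its brighter probe and 0.13 by another. Igsf8, a direct partner of Cd9 and Cd81, had levels of 1.39 and 1.72 on the Tie-2-Etv2 arrays, with the control array between them at 1.65, a log2 difference of -0.09 ± 0.35 (SE).

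Platelet and megakaryocyte markers, beside Itga2b and Gp6, did not move together. Of 12 tested, 4 were 2-fold higher in both arrays and 4 lower, and their summed level was 12.8 and 9.71 on the Tie-2-Etv2 arrays, against 9.0 on the control array. Clec1b and Pf4 differed by 3.16 and -1.76. Visceral endoderm markers, 9 of 10 of which were 2-fold lower and 0 higher, summed to 6.78 and 17.7 on the Tie-2-Etv2 arrays, against 39.0 on the control array. Mesenchyme markers, 6 of 9 tested lower and 0 higher, summed over 10 to 0.202 and 0.164 on the Tie-2-Etv2 arrays, against 1.51 on the control array, and Pdgfra was above background on no array. The part of either population in the Epcam difference was not tested.

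**Figure D4:**
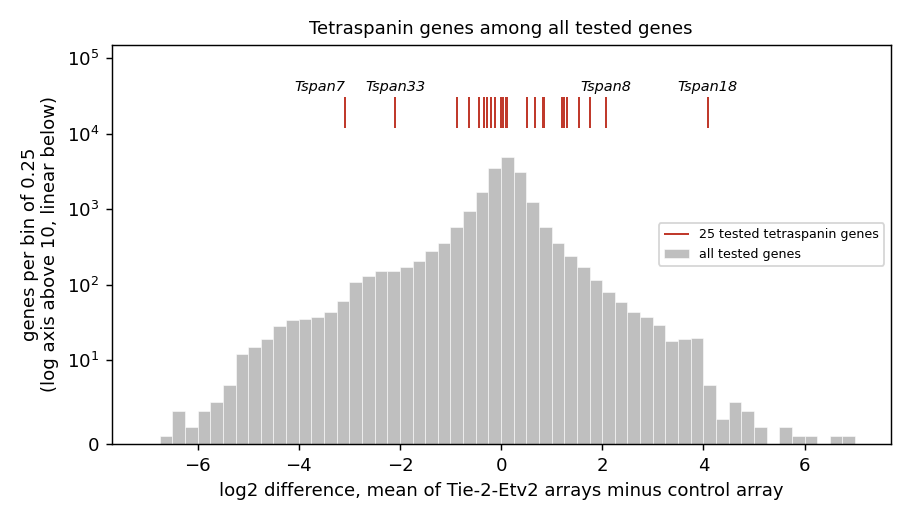
Number of genes (y axis, log scale above 10) in bins of the mean log2 difference, Tie-2-Etv2 minus control (x axis), over all 19583 tested genes, with a tick for each of the 25 tested tetraspanin genes. Most ticks stand over the centre of the distribution, with Tspan18 at 4.09 and Tspan7 at -3.08 in its tails.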

How the data were processed

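Array intensity values were extracted by the authors with Agilent Feature Extraction (10.7.3.1 per the file headers, 10.7 per the submitters' processing notes) on design 028005, with background subtracted and no scaling between arrays. A second deposited file holds log2 values with no stated scale or centring. Between arrays its values differ as the log2 processed signal does, to within 0.01 in 100% of probes, once a constant is taken off each Tie-2-Etv2 array (0.756 and -0.0161), and rows are centred on the median array. Column medians were 0.136 and 0 for the Tie-2-Etv2 arrays and 0 for the control. Probe coordinates are on mm9, per the file headers.

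Control spots and 168 to 174 outlier spots per array were left out, and no spot was saturated. Replicate spots were averaged on the log2 scale and scaled to the 75th percentile over 22764 probes. Of 55681 probes, 26582 were named by accession, 2602 by symbol and 492 by synonym through RefSeq (GRCm38.p6, used for names, gene order and promoters), and 26005 kept the name in the files. A gene was represented by its brightest tested probe. limma 3.58.1 in R 4.3.3 (lmFit and eBayes, two-sided, Benjamini-Hochberg over all tested probes) was fitted with 1 residual degree of freedom, raised to 3.93 by moderation, and was tested on simulated data. Members and lists were chosen with earlier results of these data known. Values on each array are given for members 2-fold apart in both Tie-2-Etv2 arrays or dim in 1 group only, for the common leukocyte and widely expressed tetraspanins, and for the group that binds Adam10. Partners 2-fold apart were named, with Adam10, Itgb1 and Igsf8. Tspan2, Tspan6, Tspan12, Tspan32, Orai1, Clec1b and Pf4 were added after their values were seen. So were Itgb3, Cd79a, Cd79b, Vpreb1, Cldn5, Emcn, Egfl7 and Mpo.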

Additional observations from a re-analysis of the deposited data

How the results depend on the processing

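Setting dim values to the lowest detected level was chosen after seeing the data; the other alternatives were planned. No paired analysis was possible because the control group has 1 array. The count of tetraspanin probes passing limma's test was 0 except with normexp (4) and without the filter on dim probes (3). The prior degrees of freedom of limma stood at infinity and 20.1 in those fits, against 2.93, and the cause of the extra calls was not tested. Over the alternatives with a test the adjusted p ranged from 2.02e-14 to 0.433 for Tspan18, 0.00324 to 0.608 for Tspan8, 0.237 to 0.894 for Cd37, 0.0319 to 0.383 for Tspan33 and 0.0215 to 0.261 for Tspan7. Their log2 differences kept their direction in all alternatives run, with ranges of 3.22 to 4.95, 1.25 to 2.90, 1.17 to 1.31, -2.30 to -1.53 and -3.27 to -1.27. With only probes above background on all 3 arrays 1 tetraspanin gene was 2-fold lower, since Tspan7 was then not tested. The 2-fold higher count was 3 in place of 4, without Tspan15, with normexp, with quantile normalization, with probes above background on all 3 arrays and with dim values at the lowest detected level. Partners 2-fold apart numbered 1 with normexp, 2 with probes above background on all 3 arrays and 3 with dim values at the lowest detected level, against 5. With 1 Tie-2-Etv2 array left out, which leaves no test, 4 to 9 tetraspanin genes were 2-fold higher, 2 to 3 lower and 5 to 14 partners apart, and the family median was 0.27 to 0.51. Over all 19583 tested genes the counts were 896 to 1775 higher, 1634 to 2204 lower and 2530 to 3979 apart. In each case the higher number came without replicate 2. Signal over background limits Tspan15, Tspan7 and the second Tspan18 probe most.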

Other observations

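Several tetraspanin genes are neighbours in the RefSeq gene order. Tspan18 and Cd82 lie next to each other on chromosome 2 with 0 protein-coding genes between them, and 191499 bases separate their nearest probes (mm9). Every tested probe of both genes was above the control on both Tie-2-Etv2 arrays. Mean log2 differences were 4.09 and at least 4.02 (control dim, and 2.20 with normexp) for Tspan18 and 1.21, 0.99 and 1.45 for Cd82. Tspan32 and Cd81, adjacent on chromosome 7, were also above it on both arrays, at 0.83 and 0.50 by their representing probes. Cd151 and Tspan4, with only Polr2l between them on chromosome 7, lay on opposite sides, at -0.43 and 0.51. Upk1a, on chromosome 7, is 1 gene away from Etv2, with Cox6b1 between them. Upk1a had levels of -5.31 and -4.94 on the Tie-2-Etv2 arrays, around -5.16 on the control array. The representing Etv2 probe, in contrast, differed by 3.82 and a second Etv2 probe by 2.32. These pairs were picked after their values were seen, and no test of position was made.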
